A study of Homo sapiens with 4 samples.

Results

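The genes described here are 10 members of the fibroblast growth factor (FGF) system: the ligand genes FGF1, FGF2, FGF5, FGF7 and FGF18, the receptor kinase genes FGFR1, FGFR2, FGFR3 and FGFR4, and FGFRL1, which encodes a receptor-like protein without a kinase domain. They were taken by name, with every probe set annotated to 1 of them alone, which gave 43 of 54613 probe sets and 10 of 19775 named genes. The cells were U87TR-Da, made from the human glioblastoma line U87MG so that the gene of DACH1, a nuclear transcriptional repressor, can be turned on with doxycycline. There were 4 conditions with 1 array each: DACH1-induced and DACH1-silenced cells in Neurobasal medium labelled serum-free and supplemented with EGF, basic FGF, N-2 and B-27, and DACH1-induced and DACH1-silenced cells in DMEM labelled as holding 10% fetal bovine serum. The labels give 1 µg/mL doxycycline for 72 h for all 4 samples, the silenced ones included. No condition was repeated, so no value has a replicate error and precision is limited by having 4 arrays. The cells are 1 engineered line, and in bulk RNA fewer expressing cells and less RNA per cell cannot be told apart.

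FGFs are secreted proteins that bind receptor tyrosine kinases together with heparan sulfate, the sulfated sugar chains of cell-surface and matrix proteoglycans. Bound receptors signal through adaptor proteins to the ERK cascade, which switches on its own inhibitors of the Sprouty and DUSP families. FGF2, also called basic FGF, is a mitogen of glioma and neural stem cells and is added to serum-free media for that reason. FGF1 and FGF2 are released without a classical signal peptide, FGF7 (keratinocyte growth factor) is a product of mesenchymal cells that acts on an epithelial splice form of FGFR2, and FGF18 acts mainly in bone and cartilage.

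The 250 bases before the transcription start are shown for FGF2 and FGF7, because these were the members whose signal was at least 2-fold lower with DACH1 induced in the arrays labelled serum. The sequences are RefSeq's (GRCh38.p14). The set of promoters used here held entries for 9 of the 10 members, FGFR1 not among them. Each of the 2 genes had 1 start listed. Both are printed 5′ to 3′ on the plus strand of the chromosome, which is the strand of the gene, with matches to the GC box GGGCGG in capitals: chr4:122826581-122826830 for FGF2 and chr15:49422992-49423241 for FGF7.
FGF2: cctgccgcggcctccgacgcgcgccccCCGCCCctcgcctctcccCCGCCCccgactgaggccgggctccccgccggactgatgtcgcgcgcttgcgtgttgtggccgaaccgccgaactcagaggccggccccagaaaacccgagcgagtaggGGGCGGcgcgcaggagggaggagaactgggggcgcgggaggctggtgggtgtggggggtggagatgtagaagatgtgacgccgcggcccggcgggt
FGF7: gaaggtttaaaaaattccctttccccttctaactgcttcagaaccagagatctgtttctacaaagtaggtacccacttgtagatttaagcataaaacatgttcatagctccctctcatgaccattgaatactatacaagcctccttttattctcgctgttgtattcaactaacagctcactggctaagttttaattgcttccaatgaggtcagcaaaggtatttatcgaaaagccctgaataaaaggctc
Of 4 motifs searched on both strands, the FGF2 window held the GC box 3 times, 1 on the plus and 2 on the minus strand, a motif found in 42.6% of 35116 such windows. The FGF7 window held 0. Neither held the AP-1 motif TGANTCA (6.57% of windows), the FOX core GTAAACA (2.98%) or the TATA box TATAAA (10.7%). No match says only that these letters are not in the window.

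DACH1 itself was read as a check of the labels. Its brightest probe set gave 875.1 in induced and 32.5 in silenced cells labelled serum-free, and 4431 in induced and 126.0 in silenced cells labelled serum. On this probe set the induced cells were 26.9-fold and 35.2-fold higher. A second DACH1 probe set showed no such rise, with 2.9 in induced and 12.1 in silenced cells labelled serum-free and 24.7 in induced and 23.1 in silenced cells labelled serum. The third lay under 10.9 on all 4 arrays. Media are named here as labelled. Of 8 genes of the actin cytoskeleton and serum response factor, which serum is known to induce, 6 rose in the arrays labelled serum-free in limma and 0 fell, beside 15.4% of all genes called higher and 12.7% lower. Of 6 immediate early genes 0 were called higher and 3 lower, and FOS and FOSB among these entered the fit only through the arrays in which they are high. Of 9 genes of cholesterol uptake and synthesis 1 rose and 0 fell, with a median log2 difference of -0.41. Whether the arrays match their medium labels was not tested. Of the 6 glioblastoma markers, VIM read at least 6065.4 and CD44 at least 4213.6 on every array, while GFAP, S100B and SOX2 lay under 10.9 on every array. NES was dim, at 19.6 to 35.8. Of 14 markers of other cell types, 7 reached the median of all signals (17.2) on any array and 1 (the neuronal gene SNAP25) reached 100. SNAP25 rose 3.45-fold in the arrays labelled serum-free (adjusted p 0.0349 in limma). The summed signal of the 14 markers was 492.9 in induced and 545.6 in silenced cells labelled serum-free, and 233.5 in induced and 339.6 in silenced cells labelled serum. SNAP25 alone gave 352.5 in induced and 370.3 in silenced cells labelled serum-free, and 68.6 in induced and 160.2 in silenced cells labelled serum. The part of cells with these markers in the medium differences given for the FGF genes was not tested.

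**Figure D1:**
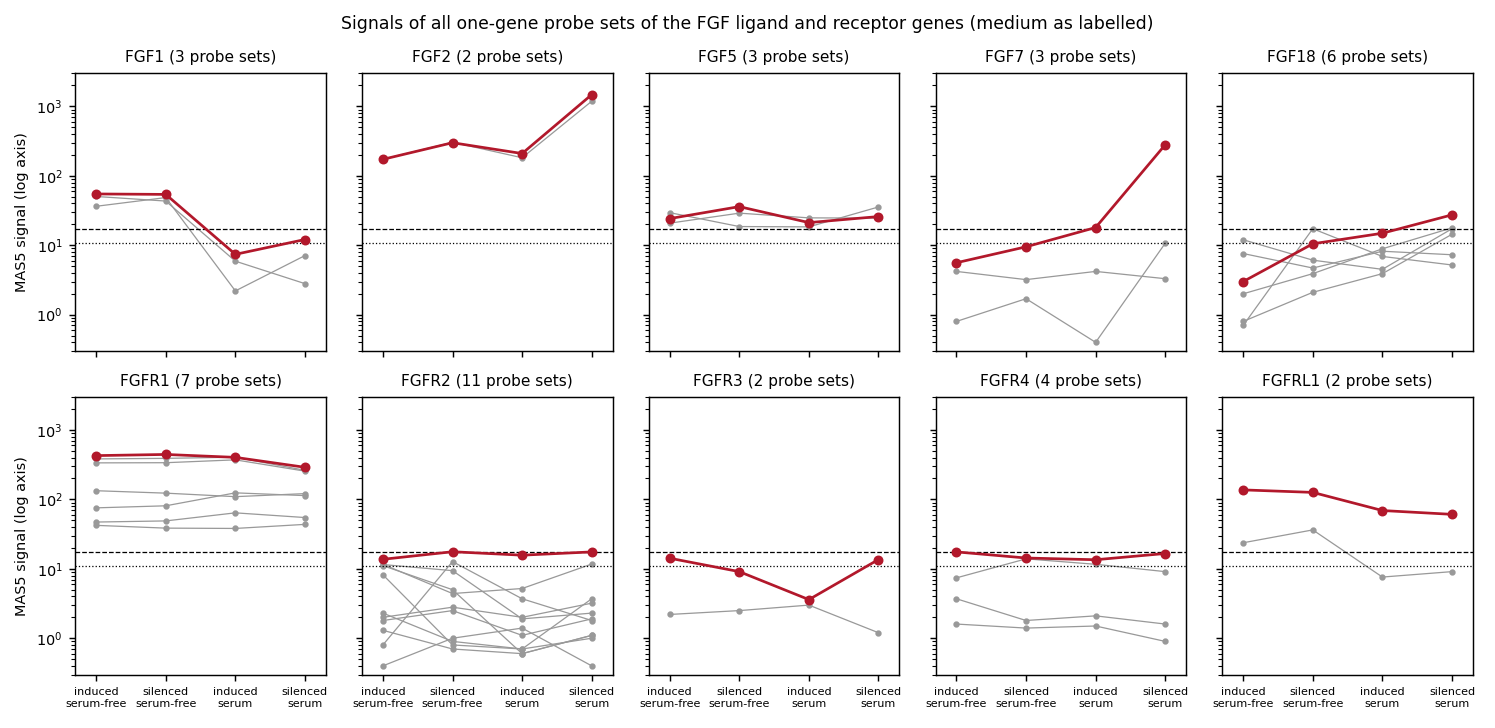
MAS5 signal (log axis) of every one-gene probe set of the 10 genes on the 4 arrays, named by DACH1 state and medium label. Red is each gene's brightest probe set by mean log2 signal, grey the others. The dotted line is the floor (10.9) and the dashed line the median of all signals (17.2). FGF2 and FGF7 peak in the silenced array labelled serum, FGF1 is higher on both arrays labelled serum-free, and FGFR1 is above the median throughout.

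Among the ligands, FGF2 and FGF7 were highest in silenced cells labelled serum and lower with DACH1 induced, FGF1 followed the medium label, and FGF5 and FGF18 stayed low. FGF2 read 172.7 in induced and 299.6 in silenced cells labelled serum-free, and 209.3 in induced and 1476 in silenced cells labelled serum. One array thus stood apart, and the other 3 lay between 172.7 and 299.6. The second FGF2 probe set gave 172.8, 304.4, 182.0 and 1185.5 on the same arrays in the same order. FGF2 on the silenced array labelled serum lay at percentile 97.9 of all probe sets, against percentiles of 83.1 to 89.2 on the others.

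The log2 difference of FGF2 between induced and silenced cells was -2.82 labelled serum and -0.79 labelled serum-free, with -2.70 and -0.82 for the second probe set. With signals under the 40th percentile (10.9) raised to it and genes compared where at least 1 array reached the median (17.2), 4.77% of 12190 genes were at least 2-fold lower in the first pair and 2.72% of 12659 in the second. The 2 pairs differed by 2.02 log2 units for FGF2, a difference with no test. Among 12103 genes the DACH1 difference was at least 1 log2 unit higher labelled serum-free than labelled serum in 5.40% and lower by as much in 4.76%.

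FGF7 read 5.6 in induced and 9.5 in silenced cells labelled serum-free, and 18 in induced and 280.4 in silenced cells labelled serum. It was therefore far above the median on 1 array, and under the floor in both cell states labelled serum-free, where no fold is given. Labelled serum, it was 15.6-fold lower with DACH1 induced. The other 2 FGF7 probe sets stayed at or under 10.7 on all arrays, so the FGF7 value rests on 1 probe set. With the mean of all 3 probe sets its log2 difference was -1.32 in place of -3.96. FGF7 also has near-identical pseudogene copies. A probe set annotated to 3 genes, FGF7 among them, read 34.4 in induced and 363.8 in silenced cells labelled serum, 10.6-fold lower. A probe set of the pseudogene FGF7P3 read 11.0 and 79.1 on these arrays, 7.19-fold lower, and how far signal is shared among the copies was not tested.

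FGF1 showed the opposite dependence on the medium. It read 54.8 in induced and 54.0 in silenced cells labelled serum-free, and 7.4 in induced and 12.1 in silenced cells labelled serum. Both arrays labelled serum-free lay above both labelled serum, and all 3 probe sets did the same, at 36.4 to 54.8 against 2.2 to 12.1. Between DACH1 states labelled serum-free there was a log2 difference of 0.02 for the brightest probe set and a range of -0.42 to 0.22 over the 3.

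FGF5, a ligand known from hair growth, read 24.2 and 36.0 in induced and silenced cells labelled serum-free, and 21.2 and 25.9 in induced and silenced cells labelled serum. Its 3 probe sets did not share a direction: with DACH1 induced their log2 differences ran from -0.95 to 0.01 labelled serum and from -0.57 to 0.67 labelled serum-free. FGF18 read 3.0 in induced and 10.5 in silenced cells labelled serum-free, both under the floor, and 14.9 in induced and 27.4 in silenced cells labelled serum. Of its 6 probe sets, 3 could be compared labelled serum, with log2 differences of -0.88 to -0.67 and 0 past 2-fold. On the dimmer of these probe sets the induced signals (4.5 and 8.9) were under the floor. Their differences are therefore bounds, and whether they passed 2-fold is not known.

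Of the receptor genes, only FGFR1 and FGFRL1 had a probe set that reached the median on every array. FGFR1, whose kinase serves most FGFs in mesenchymal and glial cells, read 426.4 in induced and 443.0 in silenced cells labelled serum-free, and 402.3 in induced and 289.4 in silenced cells labelled serum. The log2 difference with DACH1 was 0.48 labelled serum and -0.06 labelled serum-free. All 7 FGFR1 probe sets lay above the median of all signals on every array. Labelled serum, 5 of the 7 were higher and 2 lower in induced cells, from -0.19 to 0.63, and labelled serum-free 2 were higher and 5 lower, from -0.10 to 0.13. Over the mean of the 7 the serum-free difference was 0.00, so its sign is not settled.

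FGFR2, FGFR3 and FGFR4 gave signals near the floor. Of 11 FGFR2 probe sets, 10 were under the median on all 4 arrays, and the brightest read 13.7 and 17.6 in induced and silenced cells labelled serum-free and 15.7 and 17.5 in induced and silenced cells labelled serum. Both FGFR3 probe sets lay under the median on every array, the brighter at 14.2, 9.1, 3.6 and 13.6 in the same order. Of 4 FGFR4 probe sets, 3 lay under it everywhere, and the brightest read 17.5, 14.3, 13.5 and 16.6. No detection calls were used, so these are low signals and not absence.

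FGFRL1, whose product binds FGFs and heparan sulfate but has no kinase, followed the medium label. It read 136.8 in induced and 125.9 in silenced cells labelled serum-free, and 69.0 in induced and 60.8 in silenced cells labelled serum. The second probe set had 23.7 and 36.3 against 7.6 and 9.1. On both probe sets the arrays labelled serum-free lay above those labelled serum, while the DACH1 states differed by a log2 difference of 0.18 labelled serum and 0.12 labelled serum-free for the brighter one. The second probe set differed by -0.62 labelled serum-free.

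**Figure D2:**
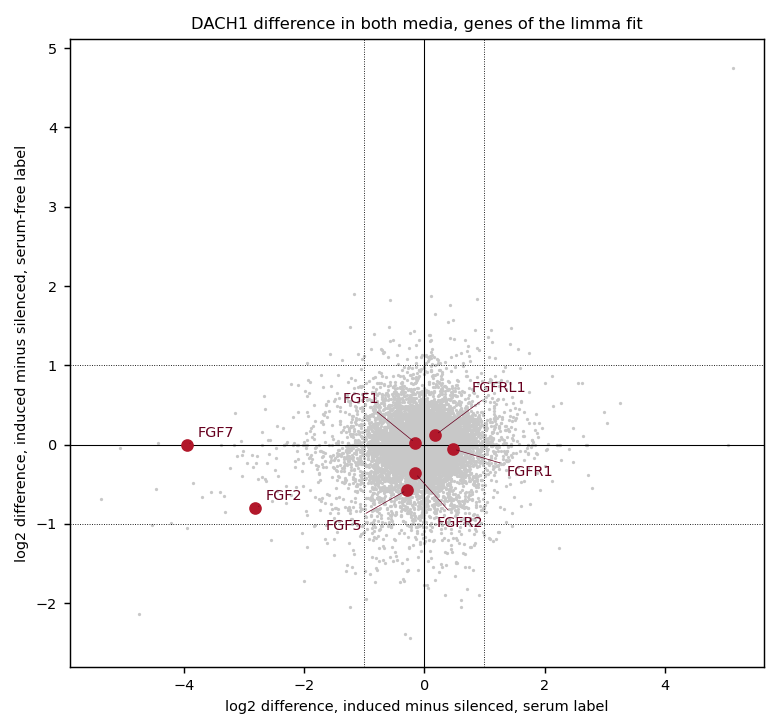
Log2 difference between induced and silenced cells in the medium labelled serum (x axis) and serum-free (y axis) for the 12103 genes of the limma fit (grey) and the 7 members in it (red). Dotted lines mark 2-fold. FGF7 (-3.96) and FGF2 (-2.82) lie far to the left, and no member passes 2-fold on the y axis.

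Counted over the members, 7 of 10 could be compared labelled serum, of which FGF2 and FGF7 were at least 2-fold lower with DACH1 induced and 0 higher, beside 2.91% of all genes higher and 7.68% past 2-fold in either direction. The members' median log2 difference was -0.29, against 0.01 over all genes compared. That median is the value of FGF5, whose probe sets did not share a direction. FGF18 and FGFR2 could be compared only through the silenced array, in which they are higher. Labelled serum-free 7 could be compared and 0 passed 2-fold in either direction, beside 1.02% of all genes higher and 3.74% in either direction. FGFR2 could be compared there only through the silenced array and FGFR4 only through the induced array, each where it is higher. The members' median labelled serum-free was -0.06, against -0.00 over all genes. It is the value of FGFR1, whose sign was not settled.

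The DACH1 term was tested over all genes in limma, with medium as a second term. This fit needs 2 of the 4 arrays at the median, which 7 of the 10 members met. It leaves 1 residual degree of freedom, so each gene's own residual is the interaction of DACH1 and medium in single arrays. In limma each gene's error is then drawn towards a value pooled over all genes of the fit. The SEs and p-values therefore rest in part on other genes. No gene of 12103 passed the adjusted threshold of 0.05 in either direction (0%). Without adjustment 585 genes (4.83%) were under 0.05 in limma. FGF2 had a log2 difference of -1.81 (SE 0.54, adjusted p 0.931 in limma), lower in 2 of 2 induced arrays. FGF7 had -1.98 (SE 1.02, adjusted p 0.931), carried by the arrays labelled serum alone. The other 5 members lay between -0.43 and 0.21, with adjusted p values from 0.931 to 0.977. Of these, FGFR2 (-0.26) entered the fit only through the 2 silenced arrays, in which it is higher, so its value is a description and not a test. The labels do not say how the cultures were set up. With 1 array per condition, any culture-to-culture spread is mixed with the interaction, so the p-values do not measure that spread by itself.

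The second comparison was between the media, and it uses the same 4 arrays as the first. FGFRL1 rose in the medium labelled serum-free, FGF1 was higher there, and FGF2 and FGF7 were lower there in silenced cells. In limma, FGFRL1 was 2.03-fold higher (log2 difference 1.02, SE 0.18, adjusted p 0.0309), higher in 2 of 2 pairs. FGF1 had a log2 difference of 2.24 (SE 0.18, adjusted p 0.0170), with a signal under the floor counted at the floor. It entered the fit only through the 2 arrays in which it is high, so its limma value is a description and not a test. The same holds for FGF7 and its 2 arrays labelled serum. The fit called 15.4% of the 12103 genes higher and 12.7% lower, and 45.7% had an unadjusted p under 0.05. In induced cells FGF1 was at least 5.03-fold higher labelled serum-free, a bound because its signal labelled serum was under the floor. With all 19775 genes in the fit and no filter on low signals, neither gene was under the adjusted threshold, at adjusted p values of 0.112 for FGF1 and 0.111 for FGFRL1.

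FGF2 was 4.93-fold lower labelled serum-free in silenced cells and 1.21-fold lower in induced cells. For FGF7 the bounds were 25.7-fold lower or more in silenced cells and 1.65-fold lower or more in induced cells. Neither passed in limma, with log2 differences of -1.29 (SE 0.54, adjusted p 0.147) for FGF2 and -2.70 (SE 1.02, adjusted p 0.120) for FGF7. FGFR1 had 0.35 (SE 0.22, adjusted p 0.291), FGF5 0.33 (SE 0.19, adjusted p 0.250) and FGFR2 -0.09 (SE 0.18, adjusted p 0.726). Counted at 2-fold without a test, FGF1 and FGFRL1 were higher and FGF2, FGF7 and FGF18 lower among 8 members compared in silenced cells, where 15.3% of genes were higher, 12.2% lower and 27.5% either. FGF1, FGF7 and FGF18 could be compared there only through the array in which they are high, so their counts are a description. FGF18 was past 2-fold on 1 of its 6 probe sets, and another had a log2 difference of at least 0.67, with its signal labelled serum under the floor. With a pseudocount in place of the floor, FGF18 (-0.84) and FGFRL1 (0.93) were short of 2-fold. In induced cells FGF1 alone of 7 was past 2-fold, where 14.0% of genes were higher, 10.1% lower and 24.1% either, and FGFRL1 stood just short at 1.98-fold. Here too FGF1 was compared only through the array in which it is high.

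**Figure D3:**
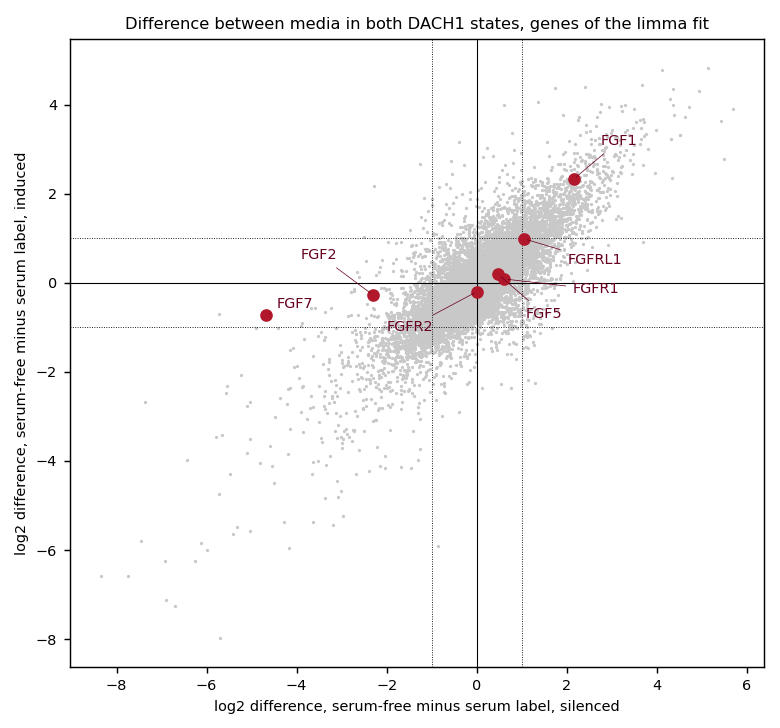
Log2 difference between the medium labelled serum-free and the medium labelled serum in silenced (x axis) and induced cells (y axis) for the 12103 genes of the limma fit (grey) and the 7 members in it (red). Dotted lines mark 2-fold. FGF1 and FGFRL1 lie near the diagonal of the cloud, while FGF2 (-2.30 and -0.28) and FGF7 (-4.69 and -0.72) lie far from 0 on the x axis only.

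The other FGF genes were mostly dim. Of 13 further secreted ligands on the array, 2 (FGF4 and FGF6) reached the median on any array and 0 reached 100. FGF4 read 15 and 34.5 in induced and silenced cells labelled serum-free and 2.1 and 19.8 in induced and silenced cells labelled serum. Of the 4 FGF homologous factors, which stay inside the cell, FGF13 reached 276.7 and 170.4 in induced and silenced cells labelled serum-free and 289.3 and 371.7 in induced and silenced cells labelled serum. Of these and the secreted ligands, 2 genes each were in the limma fit. Of them 0 passed for the medium, beside 15.4% of all genes called higher and 12.7% lower. For DACH1 no gene of the 12103 passed. FGF4 entered the fit only through the silenced arrays, in which it is high.

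The genes of several heparan sulfate proteoglycans, the coreceptors of FGFs, rose in the medium labelled serum-free. Of 8 core protein genes in the limma fit, among 12 on the array, 4 rose and 0 fell, beside 15.4% of all genes called higher and 12.7% lower. The median log2 difference was 0.99 against 0.02 over all 12103 genes. Without _x_at and _s_at probe sets 2 of 6 rose, and the median was 0.23. SDC1, which encodes syndecan 1, read 1021.6 in induced and 938.3 in silenced cells labelled serum-free, and 238.2 in induced and 119.7 in silenced cells labelled serum. That was 5.80-fold higher (adjusted p 0.0197 in limma). HSPG2, the gene of the matrix proteoglycan perlecan, rose 4.10-fold (adjusted p 0.0185), AGRN, the agrin gene, 2.33-fold (adjusted p 0.0244) and SDC2 2.20-fold (adjusted p 0.0270). In the same lists of heparan sulfate, no gene passed for DACH1. GPC6, a glypican gene, read 281.7 in induced and 756.7 in silenced cells labelled serum and 432.0 and 454.5 labelled serum-free. It is outside the rule for named genes and was picked after its values were seen.

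Of 11 genes for heparan sulfate synthesis and editing in the fit, 3 rose and 1 fell, beside the same 15.4% and 12.7% of all genes, with a median of 0.52. NDST1, an N-sulfotransferase of the growing chain, rose 4.11-fold (adjusted p 0.0203 in limma), and HS6ST1, a 6-O-sulfotransferase, 2.55-fold (adjusted p 0.0225). The polymerase gene EXT2 rose 1.77-fold (adjusted p 0.0457), and GLCE, the glucuronic acid epimerase gene, fell 2.74-fold (adjusted p 0.0225). Of 4 genes of carriers and receptor partners in the fit, 2 (CDH2 and FGFBP1) were called higher and 0 lower, beside 15.4% and 12.7% of all genes. CDH2, which encodes N-cadherin, rose 2.43-fold (adjusted p 0.0357 in limma). FGFBP1, an FGF carrier gene, read 20.6 in induced and 27.8 in silenced cells labelled serum-free, and 9.4 in induced and 11.1 in silenced cells labelled serum. It entered the fit only through the arrays in which it is high, so its call is not read as a result.

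Downstream of the receptors, 1 of 10 adaptor and proximal genes fell, a share close to the 12.7% of all genes called lower. It was CBL, which encodes a ubiquitin ligase of active receptors, at 2.32-fold lower (adjusted p 0.0265 in limma). Of 12 genes of ERK feedback and ETV factors, 8 were called lower and 0 higher labelled serum-free, beside 12.7% and 15.4% of all genes, with a median of -1.09. With no floor 5 were called lower, and with every array required at the median 7 of 11. The ERK phosphatase gene DUSP6 read 38.1 in induced and 45.3 in silenced cells labelled serum-free, and 1012.2 in induced and 2383.3 in silenced cells labelled serum. DUSP6 fell 37.4-fold and SPRY2, a Sprouty inhibitor gene, 11.9-fold (adjusted p 0.0167 in limma for both). The transcription factor gene ETV5 fell 2.77-fold, and the phosphatase genes DUSP4 and DUSP5 3.44-fold and 2.11-fold, with adjusted p values of 0.0188 to 0.0351 in limma. ETV4, another of the 8, entered the fit only through the arrays in which it is high, and read 7.1 in induced and 14.6 in silenced cells labelled serum-free, and 93.1 in induced and 71.9 in silenced cells labelled serum. The arrays labelled with added basic FGF and EGF thus had the lower mean log2 signals for 10 of these 12 genes. SPRY1 and IL17RD went the other way, with log2 differences of 0.85 and 0.10, and neither was called. For DACH1, 0 of the 12 passed in limma. Labelled serum, 1 of the 12 was at least 2-fold higher with DACH1 induced and 2 lower, beside 2.91% and 4.77% of all genes. SPRY4 was 2.14-fold higher, and ETV1 and DUSP6 were 3.74-fold and 2.35-fold lower. Labelled serum-free, 0 of 11 compared passed 2-fold in either direction. The log2 differences there were -0.34 for SPRY4, 0.17 for ETV1 and -0.25 for DUSP6. SPRY4 and ETV1 were picked after their values were seen. Without a filter on low signals 0 of 19775 genes passed for the medium in limma, these pathway genes included, although 4531 had an unadjusted p under 0.05.

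**Figure D4:**
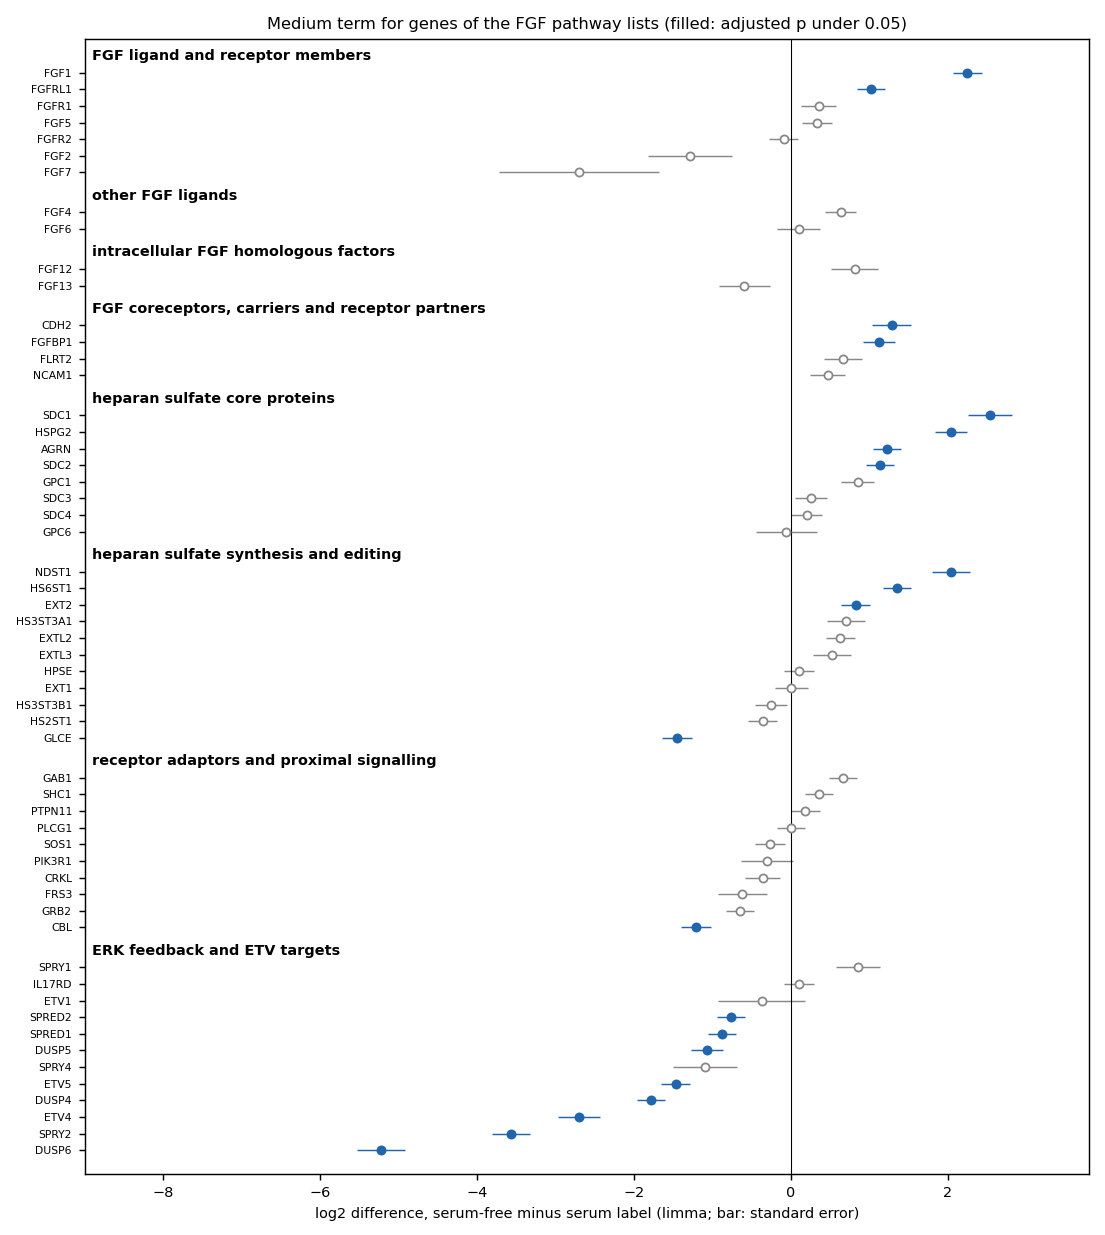
Log2 difference between the medium labelled serum-free and the medium labelled serum (x axis; limma, all 4 arrays) for each gene of the FGF lists that entered the fit, with bars of 1 standard error. Filled points have an adjusted p under 0.05, and FGF1, FGFBP1 and ETV4 among them entered the fit only through the arrays in which they are high. Core protein genes such as SDC1 (2.54) lie to the right and ERK feedback genes such as DUSP6 (-5.22) to the left.

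Genes with the most similar pattern over the 4 arrays were ranked by the root mean square difference of centred log2 signals among 8074 genes with an array at 100 or more. For FGF2 these were TES (0.25), PCDH18 (0.31) and FST (0.35). TES read 56.9 and 62.6 in induced and silenced cells labelled serum-free, and 48.1 and 393.8 in induced and silenced cells labelled serum. For FGF7 they were CXCL5 (0.13), NRCAM (0.21) and GNA15 (0.31). For FGFR1 they were SIPA1L1 (0.01), RTF2 (0.03) and TRIM47 (0.03), and for FGFRL1 they were C8orf48 (0.03), PIGK (0.03) and XYLT1 (0.03). Over 4 arrays this likeness is a description only.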

How the data were processed

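Total RNA (6 µg per sample) was hybridised to 4 Affymetrix arrays. The deposited values are linear signal intensity per probe set, and the submitters' processing notes name MAS5. For its version, chip definition and target intensity, the entry is "not given in the sources used here". Trimmed means (2% at each end) were 99.63 to 99.65. MAS5 subtracts a mismatch background, so low signals are noisy on a log scale. Median signals ran from 15.7 to 19.3, all 4 columns were used, and 0 were left out.

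Probe sets were named from GEO's platform annotation, with symbols updated by Entrez identifier. The annotation gave 1 gene for 41091 of 54613 probe sets and several for 1801, and did not list 11721. Each gene's value is that of its brightest probe set by mean log2 signal. Signals were floored at the 40th percentile (10.9). In a pair, a fold against a signal under it is written "at least". The limma fit takes such signals at the floor. The limma fit (lmFit, eBayes, additive in DACH1 state and medium, Benjamini-Hochberg over 12103 genes) was also run on simulated data. These had additive effects, equal noise for every gene and no floor. That run therefore does not cover floored signals, unequal noise or interactions of DACH1 and medium. Pairs of arrays have no test and were counted at 2-fold. The named genes were the members, DACH1, pathway list genes passing limma or 2-fold in both pairs (up to 6 a list) and the 3 nearest patterns per member reaching 100. Members, lists and tests were chosen with earlier results of these data known. The alternatives changed the normalization (quantile), the floor (none, 50 or a pseudocount), the filter (none or stricter), the probe set per gene and the variance prior (with a trend). Software was limma 3.58.1 in R 4.3.3, and for sequences and figures matplotlib 3.10.9, numpy 2.4.6 and pandas 2.3.3 in Python 3.11.15.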

Additional observations from a re-analysis of the deposited data

Results flagged for a closer look

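FGFR1 is listed because its DACH1 differences had unlike signs, with a log2 difference of 0.48 labelled serum and -0.06 labelled serum-free, and the gap between them was not tested. The second is 1.04-fold lower, and with the mean of all 7 probe sets it was 0.00, so opposite directions are not shown. Outside the one-gene probe sets, a probe set annotated to 3 genes with FGF7 among them read 363.8, and one of the pseudogene FGF7P3 read 79.1, on the silenced array labelled serum, above the other 3 arrays (at most 34.4 and 11.6).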

How the results depend on the processing

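FGF2 kept its direction in both DACH1 pairs under every alternative that could give it (-2.87 to -2.76 labelled serum, -0.86 to -0.76 labelled serum-free). It has no value without _x_at and _s_at probe sets, since both of its own are of that kind. FGF7 labelled serum ranged from -3.96 to -1.32. FGF1's medium term ran from 1.67 to 2.52 and FGFRL1's from 0.91 to 1.22, and of these settings only no filter took both over the adjusted threshold. FGF1 left the fit with every array at the median and with the setting that joined a floor of 50 to a minimum of 100 on an array, and FGFRL1 left it without _x_at and _s_at probe sets. FGFR1's medium term ran from -0.01 to 0.42 and FGF5's from -0.01 to 0.33, so neither sign was stable. With no floor, 5 ERK feedback genes were called lower, and 1 carrier gene and 2 heparan sulfate synthesis genes higher. A variance trend gave 5 of the last higher. With the mean of all probe sets, 1 ERK feedback gene was called higher and 6 lower, and 0 adaptor genes lower.

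Counts of genes moved as follows. The DACH1 pair labelled serum had 936 genes past 2-fold, 579 with every array at the median and 425 with a floor of 50 and an array at 100 or more together, where 7353 genes were compared in place of 12190. The pair labelled serum-free had 473, against 780 with no floor, 275 with a pseudocount, 87 with every array at the median, 244 with the mean of all probe sets and 11 with that joint floor and filter (7297 genes). Its split of 129 higher and 344 lower became 153 and 213 with quantile normalization. Between media the joint floor and filter gave 2280 in silenced cells, with 3552 before, and 1929 in induced cells, with 2987 before, over 7868 and 7771 genes. The limma medium term called 3396 genes, 2163 with no floor, 6798 with each probe set as a row and 0 with no filter, where 4531 had an unadjusted p under 0.05. The DACH1 term called 1 gene, DACH1, with every array at the median or with a variance trend. Among the members' values in pairs, 181 stayed within 1.5-fold of the first setting and 8 did not, and 0 called values changed sign. Leaving out 1 array leaves no residual degree of freedom and returns the value of 1 pair. No paired analysis was possible because the labels give no replicate numbers, beyond the fit itself, which takes DACH1 states within each medium and media within each DACH1 state.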
